A study of Mus musculus with 58 samples.

Results

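Endocrine precursors that carried Neurog3 and lacked Fev were compared with Sox9- and Spp1-positive trunk cells of the same embryonic mouse pancreases. The comparison took in 175 single cells, 107 precursors and 68 trunk cells, of 2009 retained cells on the 6 plates of 3 experiments and of 4318 retained cells in the whole series. Both classes were chosen by transcript numbers. After rounding, a precursor had at least 2 Neurog3 transcripts and 0 Fev. A trunk cell had 0 Neurog3, 0 Fev, at least 1 Sox9, at least 5 Spp1, more than 2 times as many Spp1 as Cpa1 transcripts, and no Tyrobp. No cell of either class had 1% or more of its transcripts from the insulin genes together, Gcg, Sst, Ppy or Ghrl. The precursors came from experiments EP12 (E13.5, 53 cells), EP14 (E14.5, 27 cells) and EP10 (E15.5, 27 cells). The trunk cells of the same experiments numbered 41, 17 and 10.

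Each experiment had a plate of MIP-GFP-sorted cells, in which GFP is driven by the mouse insulin promoter, and a plate of cells sorted only as live (negative for DAPI, a dye that enters dead cells). The pancreases were dissected from embryos of MIP-GFP females, and no strain, further genotype or number of embryos is given, so p-values here cover only how far the experiments spread, which may be technical. Each stage is 1 experiment, so stage and experiment cannot be told apart. Transcripts were counted by SORT-seq, in which each sorted cell fills 1 well of a 384-well plate and unique molecular identifiers (UMIs) mark the molecules. The 6 plates held between 6619395 and 8247766 transcripts in retained cells.

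In the developing pancreas the epithelium of the branching trunk gives rise to ducts and to endocrine cells. Sox9 is a transcription factor of this bipotent epithelium, and Spp1 encodes osteopontin, a secreted protein made by it. Neurog3, a basic helix-loop-helix transcription factor, is switched on briefly in single trunk cells and commits them to the endocrine lineage. Notch signalling holds it in check through the repressor Hes1, and Fev marks a later endocrine precursor.

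Gate genes are given as a description, without a test. Neurog3 ranged from 2 to 172 transcripts per precursor with a median of 36. At the lower edge, 16 precursors had 2 Neurog3 transcripts and 3 had 3, while 84 cells just outside had 1 Neurog3 transcript and no Fev. Another 150 cells with at least 2 Neurog3 transcripts also carried Fev. Trunk cells had between 6 and 236 Spp1 transcripts, with a median of 64, and between 2 and 142 Sox9 transcripts. Just outside the Spp1 threshold lay 1 cell with 3 Spp1 transcripts and 0 cells with 4, and just inside it 0 cells with 5 and 1 with 6. Another 18 cells met the trunk gate apart from a single Neurog3 transcript. The precursors were not uniform in the trunk genes: 80 of the 107 had at least 1 Sox9 transcript, 56 had at least 5 Spp1, 38 had none, and 48 met the trunk gate on Sox9, Spp1, Cpa1 and Tyrobp. In CPM of all transcripts, Spp1 stood at 1277, 1903 and 1191 in the precursors of EP12, EP14 and EP10, against 2525, 3409 and 2983 in the trunk cells.

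The 2 sorts contributed unequally. All 68 trunk cells lay on live plates, whereas 71 precursors lay on live plates and 36 on MIP-GFP plates. On live plates, precursors made up 10.4% of retained cells in EP12 (Wilson 95% interval 7.59 to 14.03), 5.96% in EP14 (3.85 to 9.12) and 5.56% in EP10 (3.45 to 8.83), and trunk cells made up 11.8%, 5.33% and 3.47%. On MIP-GFP plates precursors made up 4.70%, 2.39% and 3.07%, and 0 of 362, 335 and 358 cells were trunk cells, which allows shares of up to 0.829%, 0.895% and 0.838%. These intervals cover counting error only. Precursors on MIP-GFP plates had a median of 62 Neurog3 and 0 Spp1 transcripts, and precursors on live plates a median of 21 Neurog3 and 22 Spp1. Counts from a fit on live plates alone are therefore given beside the main lists. Precursors were also shallower than trunk cells, with medians of 15717, 21193 and 26379 transcripts per precursor in EP12, EP14 and EP10, against 19029, 29029 and 37023 per trunk cell.

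**Figure D1:**
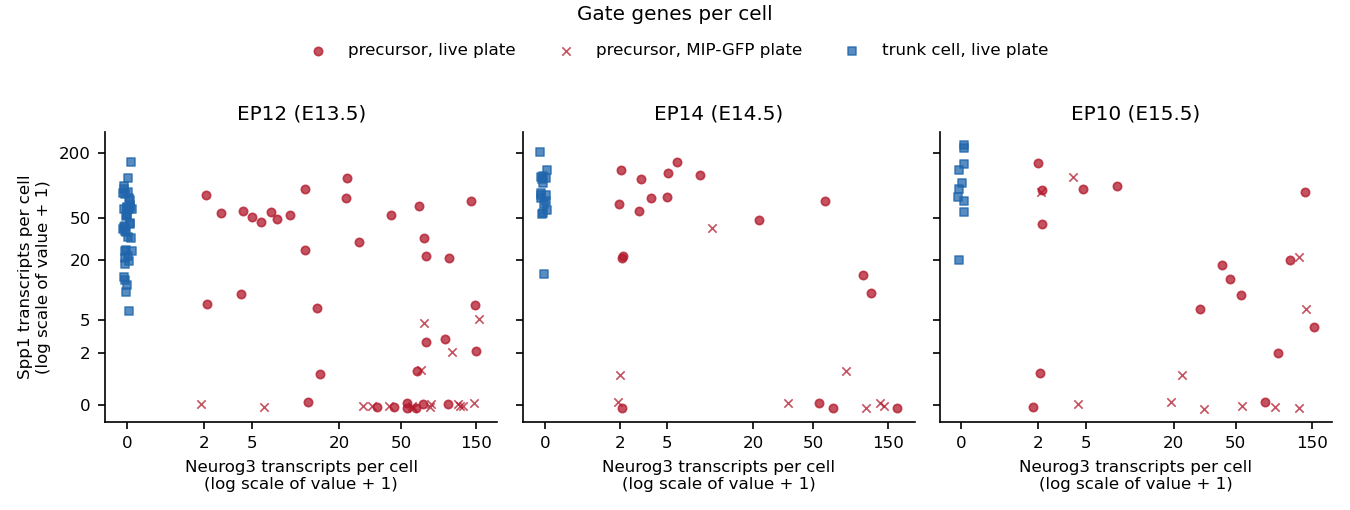
Neurog3 (horizontal axis) and Spp1 (vertical axis) transcripts per cell, both on a log scale of the value plus 1, in the 107 precursors (red, circles for live and crosses for MIP-GFP plates) and the 68 trunk cells (blue squares), 1 panel per experiment. Precursors spread from 2 to 172 Neurog3 transcripts, and those with few Neurog3 transcripts often carry as much Spp1 as trunk cells, while most MIP-GFP-sorted precursors lie at 0 Spp1.

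Among the precursors, 6 cells, all with 2 Neurog3 transcripts, were rich in transcripts of another lineage: 2 had 560 and 164 mesenchyme-list transcripts, 2 had at least 10 Tyrobp (an immune cell marker) and 2 had at least 100 Cpa1 (an acinar enzyme). No trunk cell was, but the trunk gate itself shut out cells with Tyrobp and limited Cpa1 relative to Spp1. The precursor gate did neither, so these 2 markers cannot compare the classes. Of 104 cells with at least 10 Tyrobp, which should lack Neurog3, 3 (2.89%) had at least 2 Neurog3 transcripts, at a median depth of 20839 transcripts per cell. The summed immune list reached 1304 CPM in the precursors of EP14 and 26.7 to 27.9 CPM in those of the other experiments. Trunk cells, which were gated to lack Tyrobp, had 15.7 to 32.6 CPM. Endothelial markers stayed between 12.8 and 33.2 CPM in precursors and between 10.9 and 47.3 CPM in trunk cells. CPM relates a gene's transcripts to all those outside the gate genes.

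Transcripts were summed per experiment and class, which gave 3 precursor sums (862579, 611256 and 752561 transcripts) and 3 trunk sums (826906, 465091 and 399436). After removal of the 12 gate genes, edgeR's quasi-likelihood test with the experiment as block called 1596 of 8746 tested genes at a Benjamini-Hochberg adjusted p under 0.05, or 18.2%. Of these, 869 were higher (9.94% of tested genes) and 727 lower (8.31%) in precursors. The cells were chosen by transcripts of the same libraries, so genes that move with Neurog3, Sox9 or Spp1 within a cell had to differ in part. On live plates alone 912 of 7767 genes were called (11.7%; 7.12% higher and 4.62% lower), and 853 of the 912 were among the 1596. Without EP12, the experiment with the most cells, 862 genes were called. In the paragraphs below a log2 difference is precursors minus trunk cells with its SE, and adjusted p-values are from edgeR. The median log2 difference over all tested genes was -0.02.

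Precursors carried the transcription factors of endocrine commitment, and trunk cells held few transcripts of most of them. Neurod1, a factor of islet cell differentiation, stood at 737, 353 and 266 CPM in the precursors of EP12, EP14 and EP10, against 1.21, 2.15 and 5.01 CPM in trunk cells (log2 difference 7.64 ± 0.33, adjusted p = 1.0e-17). Insm1, a zinc-finger repressor of endocrine cells (chromosome 2, 146221921 to 146225020, mm10), stood at 1028, 474 and 502 CPM in precursors, against 3.63, 6.45 and 0 CPM in trunk cells (7.64 ± 0.28, adjusted p = 6.7e-19). Pax4, a factor of beta and delta cell fate (chromosome 6, 28442334 to 28449353), stood at 373, 281 and 162 CPM in precursors, against 1.21, 4.30 and 0 CPM in trunk cells (7.24 ± 0.36, adjusted p = 4.3e-16). In all 3 genes the lowest precursor sum lay far above the highest trunk sum. The classes did not overlap in CPM in 1995 of all 8746 tested genes (22.8%). Each of the 3 had fewer than 10 transcripts in the trunk cells and so entered the test through the precursors. Rfx6 (6.83 ± 0.38), Myt1 (7.76 ± 0.49) and Btbd17 (6.33 ± 0.31), of which Rfx6 and Myt1 are transcription factors, were called higher in the same way. Nkx2-2, a homeodomain factor already present in the progenitor epithelium, differed less: it stood at 700, 422 and 367 CPM in precursors, against 113, 123 and 55.1 CPM in trunk cells (2.36 ± 0.17, adjusted p = 2.6e-12). Nkx6-1 was higher by only 0.65 ± 0.18 (adjusted p = 0.0097), and without EP10, without EP12 or with precursors of at most 1 Cpa1 transcript it was no longer called. Sox4 was not called (0.14 ± 0.17, adjusted p = 0.63).

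Of the 42 genes of the Neurog3 program list, which was drawn up with earlier results of these data known, 35 were tested and 34 were called higher, against 9.94% of all tested genes. The list's median log2 difference was 4.61. Of the 35, 16 had fewer than 10 transcripts in the trunk cells and so entered the test through the precursors. Of the 19 with at least 10 in each class, 18 were called higher. On live plates 28 of 30 tested members were called higher, against 7.12% of all genes tested there.

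The largest difference of all belonged to Cck, which encodes the gut and brain peptide cholecystokinin (chromosome 9, 121489824 to 121495694). It stood at 991, 339 and 229 CPM in precursors, against 0, 2.15 and 0 CPM in trunk cells, where a single transcript was counted (9.65 ± 0.38, adjusted p = 2.6e-18). Several genes had no transcript in any trunk sum. Against a floor of 3 transcripts over all trunk cells, Gfra3, a co-receptor for the neurotrophic factor artemin, was at least 63.6-fold higher, Nefm, a neurofilament gene, at least 59.5-fold, Mboat4, the enzyme that acylates ghrelin, at least 34.4-fold, Rbfox3, a neuronal splicing factor, at least 33.9-fold, and Nptx2, a secreted pentraxin, at least 31.1-fold higher. These bounds include MIP-GFP-sorted precursors. With live-sorted precursors alone they were 45.1-fold for Gfra3, 24.7 for Nefm, 18.3 for Mboat4, 26.1 for Rbfox3 and 32.6 for Nptx2, a setting chosen after seeing the data. In EP10 Nefm stood at 366 CPM in MIP-GFP-sorted and 3.65 CPM in live-sorted precursors. Mboat4 stood there at 156 and 0 CPM, so its live-sorted precursors of EP10 did not differ from trunk cells. Gfra3, Rbfox3 and Nptx2 stood at 43.8, 52.9 and 21.9 CPM in the live-sorted precursors of EP10. Other neuronal genes were called too. Tubb3, a neuronal tubulin, stood at 262, 88.3 and 114 CPM in precursors, against 1.21, 4.30 and 0 CPM in trunk cells (6.49 ± 0.43, adjusted p = 3.1e-13). Ret, a receptor tyrosine kinase, stood at 99.7, 49.1 and 70.4 CPM in precursors, against 0, 2.15 and 0 CPM (6.64 ± 0.59, adjusted p = 2.9e-10). Both had fewer than 10 transcripts in the trunk cells and so entered the test through the precursors. Of 4 tested genes of the neural and glial list, Ret and Elavl4 were higher, and Sox10 and S100b were not called. Of the 2 with at least 10 transcripts in each class, 0 were called.

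Neurog3 and Neurod1 bind E-boxes, and the sequence before the start of 3 genes of this group that hold the E-box CAGATG is shown for reference. Each line gives 250 bases 5′ to 3′ on the gene's strand up to the base before the RefSeq start (GRCm38.p6), with the motif in capitals (CATCTG where it lies on the other strand). They lie at chr9:121495695-121495944 (Cck, minus strand), chr11:98329646-98329895 (Neurod2, minus strand) and chr2:147186403-147186652 (Nkx2-2, minus strand).
Cck: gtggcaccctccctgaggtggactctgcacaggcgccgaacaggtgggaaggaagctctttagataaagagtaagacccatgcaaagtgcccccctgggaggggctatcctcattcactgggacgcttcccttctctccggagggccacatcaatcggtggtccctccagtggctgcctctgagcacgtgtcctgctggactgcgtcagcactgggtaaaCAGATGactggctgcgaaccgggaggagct
Neurod2: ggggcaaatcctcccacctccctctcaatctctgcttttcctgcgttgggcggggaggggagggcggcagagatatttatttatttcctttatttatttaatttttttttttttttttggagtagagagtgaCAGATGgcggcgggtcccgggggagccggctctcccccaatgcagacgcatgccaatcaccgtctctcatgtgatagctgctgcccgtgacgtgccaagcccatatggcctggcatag
Nkx2-2: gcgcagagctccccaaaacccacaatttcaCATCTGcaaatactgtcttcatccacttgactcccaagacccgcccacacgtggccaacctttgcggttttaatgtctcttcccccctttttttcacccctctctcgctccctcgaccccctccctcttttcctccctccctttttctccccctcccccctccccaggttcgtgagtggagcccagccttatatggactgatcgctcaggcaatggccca
Of the 34 called genes of the Neurog3 program, 22 had an entry in the promoter table and 4 of these 22 (18.2%) held CAGATG on either strand in this window, against 718 of 6662 tested genes with an entry (10.8%) and 14.4% of all 32851 promoters. The match is a description of the sequence and not of a binding site. Neurod2, a relative of Neurod1, stood at 108, 150 and 181 CPM in precursors, against 0, 4.30 and 2.50 CPM in trunk cells (log2 difference 6.11 ± 0.42, adjusted p = 7.1e-13).

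Notch pathway genes moved in both directions, also among genes of the same role. Among the ligands, Dll1 stood at 66.1, 32.7 and 46.5 CPM in precursors, against 0, 2.15 and 0 CPM in trunk cells (6.04 ± 0.67, adjusted p = 2.8e-08), and Dll3 (6.10 ± 0.66) and Dll4 (5.21 ± 0.59) were higher as well. The ligand Jag1 was lower (-1.41 ± 0.42, adjusted p = 0.017), a call lost without EP10, without EP14, on live plates alone (adjusted p = 0.081) and with EP11 (E12.5) added. Of the fringe enzymes, which add sugars to Notch receptors, Mfng stood at 160, 99.8 and 65.1 CPM in precursors, against 1.21, 0 and 0 CPM in trunk cells (7.29 ± 0.52, adjusted p = 1.8e-12), and Lfng was higher too (4.18 ± 0.76).

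Of the receptors, Notch2 and Notch3 were lower. Notch2 stood at 56.8, 93.3 and 89.0 CPM in precursors, against 172, 155 and 160 CPM in trunk cells (-1.09 ± 0.19, adjusted p = 8.2e-05). Notch3 differed by -1.55 ± 0.32, though not called without EP12 or with DESeq2, and Notch1 was not called (0.16 ± 0.27, adjusted p = 0.73, and 0.47 on live plates). Of the targets, Nrarp, a feedback inhibitor of Notch (chromosome 2, 25180758 to 25183339), stood at 27.8, 55.6 and 27.9 CPM in precursors, against 171, 142 and 72.6 CPM in trunk cells (-1.84 ± 0.24, adjusted p = 8.3e-07). Hey1 was lower too (-1.65 ± 0.44, adjusted p = 0.0072). Hes6, a relative of Hes1 that opposes it, was higher: 300, 175 and 158 CPM in precursors, against 46.0, 43.0 and 57.6 CPM in trunk cells (2.15 ± 0.22, adjusted p = 5.0e-09). In all, 10 of 23 tested Notch pathway genes were higher and 6 lower, with a median of 0.28, where 9.94% of all tested genes were higher and 8.31% lower. On live plates 6 of 19 were higher and 3 lower, against 7.12% and 4.62% of all genes tested there. Of these 23, 17 had at least 10 transcripts in each class, of which 4 were higher and 6 lower. Without EP12, 7 of 21 tested were higher and 3 lower, against 534 and 328 of all 8327 genes.

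Hes1 (chromosome 16, 30064384 to 30067796) did not pass the test. It stood at 126, 360 and 411 CPM in precursors, against 370, 333 and 268 CPM in trunk cells, so the classes overlapped (-0.28 ± 0.21, adjusted p = 0.40). The difference was 0.21 on live plates and 0.34 without EP12, neither called. It was called lower when precursors had at least 5 Neurog3 transcripts (-0.67), or at most 1 Cpa1 transcript (-1.80). The 2 sorts stood far apart in this gene: Hes1 averaged 9.71 CPM over the 3 sums of MIP-GFP-sorted precursors and 409 CPM over those of live-sorted precursors.

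**Figure D2:**
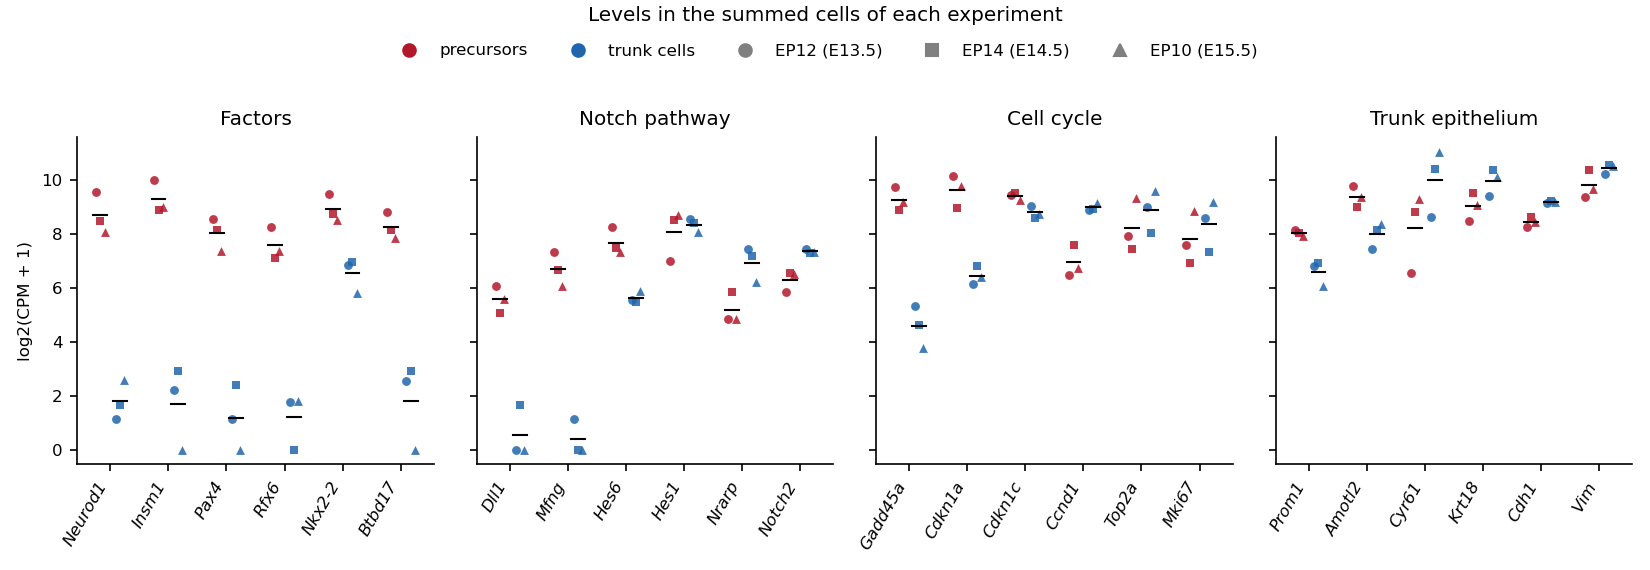
Levels of 24 genes, as log2(CPM + 1), in the summed precursors (red, left of each pair) and the summed trunk cells (blue, right) of each experiment. Symbols give the experiment and black bars the mean of 3. Neurod1, Insm1, Pax4, Rfx6 and Btbd17 lie near 0 in trunk cells and high in precursors, the classes overlap in Hes1, and Nrarp, Notch2 and Ccnd1 lie lower in precursors.

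Some genes that restrain the cell cycle were higher in precursors. Gadd45a, a growth-arrest and DNA-damage gene (chromosome 6, 67035096 to 67037457), stood at 853, 473 and 577 CPM in precursors, against 38.7, 23.7 and 12.52 CPM in trunk cells (4.61 ± 0.19, adjusted p = 7.9e-18). Cdkn1a, which encodes the cyclin-dependent kinase inhibitor p21, stood at 1118, 497 and 864 CPM in precursors, against 68.9, 110 and 82.6 CPM in trunk cells (3.23 ± 0.20, adjusted p = 8.7e-14). Cdkn1c, the inhibitor p57, differed by 0.60 ± 0.12 (adjusted p = 0.00047), a call lost when the 6 precursors rich in other lineages were left out (0.25) and when at least 5 Neurog3 transcripts were asked for (0.24). Ccnd1, the cyclin that carries cells into S phase, stood at 87.0, 193 and 106 CPM in precursors, against 470, 486 and 566 CPM in trunk cells (-2.06 ± 0.17, adjusted p = 7.0e-11). Of 17 tested genes of the exit list 8 were higher and 2 lower, the 2 being Ccnd1 and Ccnd2, where 9.94% of all tested genes were higher and 8.31% lower. On live plates 5 of 15 were higher and 1 lower, against 7.12% and 4.62% of all genes tested there.

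Genes of dividing cells were lower by smaller amounts. Of 48 tested cell cycle genes, 28 were lower and none higher, with a median of -0.59, against 8.31% of all tested genes called lower. Kif23 (-1.21 ± 0.20), a kinesin of cytokinesis, and Gins2 (-1.01 ± 0.21), a part of the replication fork, were among the 5 largest differences, although Gins2 was not called without EP12. The proliferation marker Mki67 stood at 191, 121 and 457 CPM in precursors, against 383, 159 and 576 CPM in trunk cells (-0.61 ± 0.15, adjusted p = 0.0031), and Top2a, a topoisomerase of dividing cells, at 240, 173 and 634 CPM in precursors, against 506, 262 and 759 CPM (-0.66 ± 0.14, adjusted p = 0.00076). In both the precursors were lower within each experiment, but the spread between experiments was wider than the difference. The count of 28 fell to 12 on live plates, to 9 without EP12, to 4 with DESeq2 and to 0 without the block. None was higher in any of these fits. Over all tested genes, lower calls fell as well, from 727 to 359, 328, 135 and 72 in the same order. Mki67 was not called on live plates or without EP12, nor Top2a without EP12.

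Genes of the trunk epithelium were lower in precursors more often than higher. Of 25 tested duct and trunk genes outside the gate, 14 were lower, such as Cldn3 (-1.56 ± 0.16), a tight junction claudin, Id3 (-1.27 ± 0.23), an inhibitor of helix-loop-helix factors, Bicc1 (-1.06 ± 0.18), an RNA-binding protein of ducts, and Atp1b1 (-1.01 ± 0.12), a subunit of the sodium pump. The median of the 25 was -0.57. Of all tested genes 8.31% were lower and 9.94% higher. Live plates alone gave 12 of 25 lower and 3 higher, against 4.62% and 7.12% of all genes tested there. Krt18, a keratin of simple epithelia, stood at 355, 736 and 538 CPM in precursors, against 669, 1301 and 1099 CPM in trunk cells (-0.94 ± 0.11, adjusted p = 3.7e-08). In the main fit only 2 members were higher, a share near the 9.94% of all tested genes. Prom1, which encodes the membrane protein prominin-1 and is known as a duct marker, was one: 277, 257 and 242 CPM in precursors, against 111, 118 and 65.1 CPM in trunk cells (1.39 ± 0.17, adjusted p = 2.4e-07). Krt7, a duct keratin, was the other (0.84 ± 0.15). Pdx1 had only 2 to 4 transcripts in each precursor sum and 0 to 2 in each trunk sum, and Onecut1 between 0 and 42 per sum; neither passed the filter on low counts.

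Junction, matrix and growth factor genes also held more lower than higher members. Over all tested genes 8.31% were lower and 9.94% higher, and on live plates 4.62% and 7.12%. The fit without EP10 called 406 of all 8903 genes lower, and the fit without EP12 328 of 8327. In each list below, the 2 higher members were a smaller share than the 9.94%. Of 32 tested epithelial adhesion and keratin genes 14 were lower and 2 higher (median -0.48), among them Cdh1, E-cadherin, with 305, 393 and 346 CPM in precursors, against 556, 587 and 576 CPM in trunk cells (-0.74 ± 0.12, adjusted p = 2.8e-05). The 2 higher genes were Krt7 and Pard3, a cell polarity protein (1.15 ± 0.16). On live plates 9 of 31 were lower, and without EP10 7. Of 27 matrix and matrix receptor genes 9 were lower and 2 higher (median -0.42), with the laminin Lama1 at -1.52 ± 0.26, the syndecan Sdc1 at -1.18 ± 0.22 and the metalloproteinase inhibitor Timp3 at 1.96 ± 0.39. On live plates 3 of 25 were lower. Of 27 Wnt, Fgf, Bmp and Egf signalling genes 12 were lower and 2 higher (median -0.52), the higher ones being the receptors Tgfbr1 (1.18 ± 0.18) and Fgfr3 (0.88 ± 0.21); on live plates 4 of 24 were lower, without EP10 5 and without EP12 3.

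Some Yap and Tead target genes were among the most reduced. Cyr61, a matricellular protein gene, stood at 91.6, 447 and 617 CPM in precursors, against 389, 1340 and 2078 CPM in trunk cells (-1.80 ± 0.11, adjusted p = 8.7e-14), and its relative Ctgf at 8.12, 29.5 and 19.9 CPM in precursors, against 10.9, 179 and 248 CPM (-2.79 ± 0.33, adjusted p = 7.6e-08). Both levels differed widely between experiments, and in each experiment the precursors were lower. In EP12, though, Ctgf rested on 7 transcripts in precursors and 9 in trunk cells, too few to show a difference there. Amotl2, an inhibitor of Yap, was higher: 878, 507 and 650 CPM in precursors, against 172, 282 and 326 CPM in trunk cells (1.40 ± 0.18, adjusted p = 4.6e-07). Yap1 itself differed by -0.81 ± 0.19 (adjusted p = 0.0024), a call lost on live plates, without EP10 and without EP12. Of 18 tested genes of this list 4 were lower and 2 higher, where 8.31% of all tested genes were lower. The 2 higher genes were a share near the 9.94% of all tested genes.

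The largest decrease among genes with at least 50 CPM in trunk cells was in Fmo1, a flavin-containing monooxygenase (chromosome 1, 162829561 to 162866610), at 2.32, 11.5 and 13.3 CPM in precursors, against 53.2, 73.1 and 208 CPM in trunk cells (-3.66 ± 0.33, adjusted p = 4.7e-10). Its relative Fmo2 (-2.05 ± 0.32), the glucuronosyltransferases Ugt2b34 (-1.97 ± 0.16) and Ugt2b35 (-1.63 ± 0.20), the prostaglandin-degrading enzyme Hpgd (-1.58 ± 0.20) and the carbonic anhydrase Car9 (-1.61 ± 0.30) were also in the top 15. These enzyme families have near-identical members, so single members are uncertain. Glycolysis genes were lower in 9 of 19 tested, such as Gapdh with 1876, 2110 and 1822 CPM in precursors, against 3009, 2978 and 3139 CPM in trunk cells (-0.67 ± 0.08, adjusted p = 7.0e-08). Of these 19, 2 were higher, where 8.31% of all tested genes were lower and 9.94% higher. Live plates alone gave 6 of 18 lower and 2 higher, against 4.62% and 7.12%. Without EP12, 5 of 18 were lower, against 328 of all 8327.

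Granule genes were detected in precursors. Of 21 tested genes of granules and prohormone processing 18 were higher and none lower, with a median of 3.82, where 9.94% of all tested genes were higher. Of the 21, 15 had at least 10 transcripts in each class, of which 12 were higher. On live plates 10 of 12 tested were higher, against 7.12% of all genes tested there. Syt13, a synaptotagmin, stood at 547, 272 and 290 CPM in precursors, against 6.05, 4.30 and 20.03 CPM in trunk cells (5.42 ± 0.29, adjusted p = 3.2e-15). Chgb, chromogranin B, stood at 410, 324 and 171 CPM in precursors, against 15.7, 53.8 and 17.5 CPM (3.53 ± 0.26, adjusted p = 3.7e-12), and averaged 7071 CPM in Fev-gated cells of the same experiments. The sort moved with these genes: Chgb averaged 899 CPM in MIP-GFP-sorted precursors and 54.7 CPM in live-sorted ones, and its log2 difference on live plates was 1.02 (adjusted p = 0.017).

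Some genes of single islet cell types were higher in precursors and others lower, and Iapp and Pyy differed between the sorts. Of 6 tested alpha list genes 5 were higher and 1, Gc, lower. Of 6 beta list genes 3 were higher and 1, Slc2a2, lower. Of 4 delta, gamma and epsilon list genes 2 were higher and 1, Hhex, lower. Over all tested genes 9.94% were higher and 8.31% lower. In that order, the live-plate fit called 1 of 2, 2 of 3 and 0 of 3 higher, and 1, 0 and 1 lower. It called 7.12% of all its tested genes higher and 4.62% lower. Iapp, the beta cell peptide amylin, differed by 4.09 ± 0.42 and Pyy, the peptide YY gene, by 5.81 ± 0.36. Iapp averaged 536 CPM in MIP-GFP-sorted precursors and 15.9 CPM in live-sorted ones. Pyy stood at 588, 45.2 and 757 CPM in the MIP-GFP-sorted precursors of EP12, EP14 and EP10 and at 47.4, 57.0 and 3.65 CPM in live-sorted ones, so in EP14 the order was turned round. Nkx6-1, which is on the beta cell list, was lower in the MIP-GFP-sorted precursors of all 3 experiments. On live plates neither Iapp nor Pyy passed the filter on low counts. Rbp4, a retinol carrier, differed by 1.68 ± 0.28 over both sorts and by -0.51 on live plates, not called (adjusted p = 0.35). The part of the sort in these results was not tested, since no trunk cell was MIP-GFP-sorted.

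**Figure D3:**
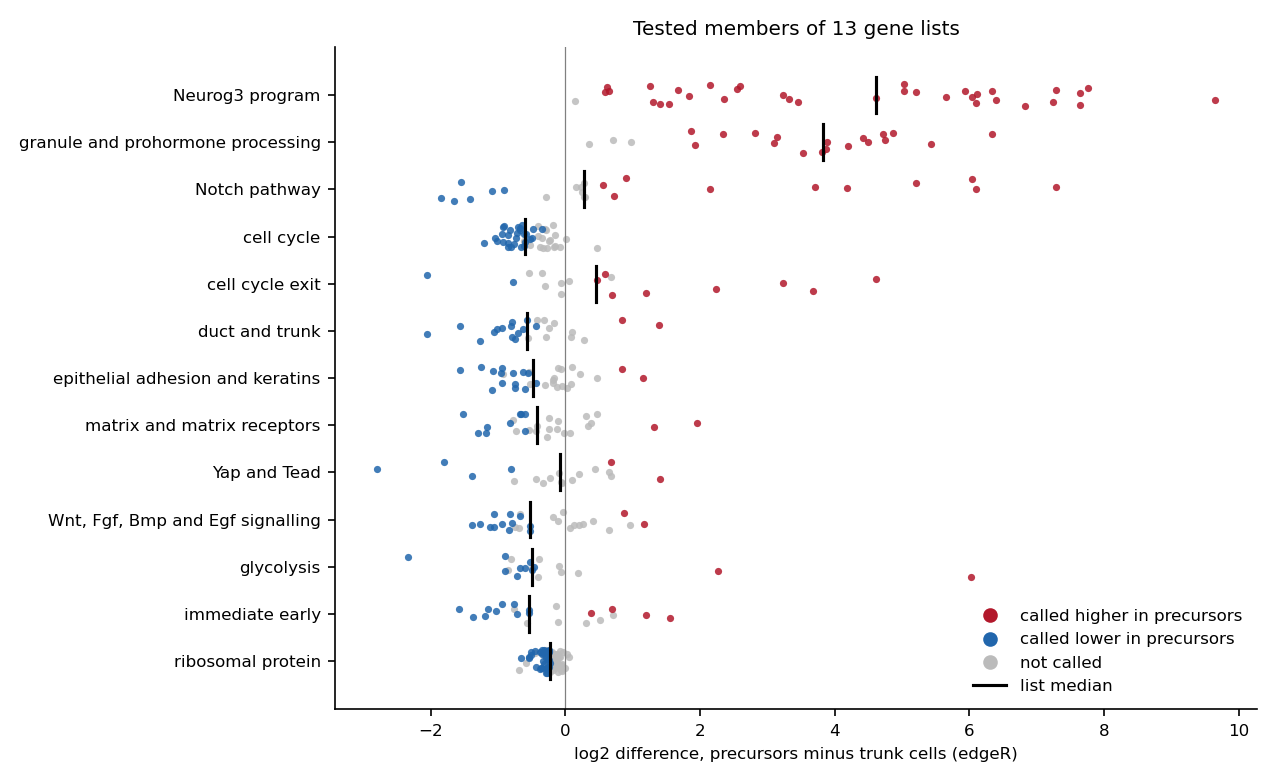
Log2 difference of each tested gene of 13 lists, precursors minus trunk cells (horizontal axis). Each point is a gene, red where called higher, blue where called lower and grey where not called, and black bars are list medians. The Neurog3 program (median 4.61) and granule list (3.82) lie far to the right, and cell cycle genes (-0.59) and trunk genes (-0.57) slightly to the left.

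Immediate early genes, which respond to stress and handling, moved with the classes. Of 21 tested, 10 were lower and 4 higher in precursors, with Atf3 at 2.32, 98.2 and 245 CPM in precursors, against 6.05, 202 and 891 CPM in trunk cells (-1.57 ± 0.20, adjusted p = 3.2e-07). Of all tested genes 8.31% were lower and 9.94% higher, and on live plates 4.62% and 7.12%. On live plates 12 of 19 immediate early genes were lower and 1 higher. Without EP12, when 328 of all 8327 genes were called lower, 11 were lower and none higher. The part of handling in other results was not tested. Ribosomal protein genes were lower in 33 of 83 tested and higher in none, by a median of -0.23, and in 9 on live plates. Mesenchymal collagens were higher in precursors, Col1a1 by 1.14 ± 0.29 and Col3a1 by 1.21 ± 0.26, but without the 6 precursors rich in other lineages they differed by -0.43 and -0.01 and were not called. The summed mesenchyme list stood at 339, 535 and 1125 CPM in precursors, against 43.5, 157 and 408 CPM in trunk cells, and 5 of 6 tested members were higher, but 1 of 5 without EP10. Of that list Mfap4, a microfibril protein gene, kept its difference without the 6 cells (6.30, against 6.25 with them). The acinar lipase gene Pnliprp1 was called higher (1.16 ± 0.36) but differed by -0.75 without the 6 cells.

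To describe how precursors differ among themselves, the precursors of each experiment were split at their median Neurog3 share of transcripts. This gave 52 Neurog3-high cells (22 on MIP-GFP plates) and 55 Neurog3-low cells (14 on MIP-GFP plates). The split used Neurog3 transcripts of the same libraries, so genes that move with Neurog3 within a cell had to differ in part. Neurog3 itself had medians of 77, 87 and 99 transcripts per high cell in EP12, EP14 and EP10, against 12, 2.5 and 4 per low cell. Spp1 had a median of 1.5 transcripts per high cell, against 45 per low cell. The high cells were shallower, with medians of 15294, 19223 and 14083 transcripts, against 17565, 26221 and 29356 in low cells. edgeR called 689 of 6956 genes between the Neurog3-high and Neurog3-low cells, or 9.91%, of which 365 were higher (5.25%) and 324 lower (4.66%) in Neurog3-high cells. All 6 precursors rich in other lineages had 2 Neurog3 transcripts, and markers of those lineages moved with the split. The mesenchyme list was lower in 4 of 5 tested genes and the acinar and tip list in 4 of 5, but in 0 of 4 and 0 of 3 without the 6 cells, when 692 genes were called in all. The summed acinar list stood at 278, 401 and 703 CPM in Neurog3-high cells, against 890, 274 and 5143 CPM in Neurog3-low cells, and the immune list at 30.02, 80.1 and 15.98 CPM in high cells, against 23.8, 2149 and 33.9 CPM in low cells. Immediate early genes were lower in 9 of 18 tested and higher in 1, and their part in other results was not tested. No gene was called without EP10, where 1241 had an unadjusted p under 0.05. Log2 differences in the next 3 paragraphs are Neurog3-high minus Neurog3-low precursors.

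Hes1 divided the precursors sharply. It stood at 22.5, 68.1 and 24.0 CPM in Neurog3-high cells, against 216, 561 and 603 CPM in Neurog3-low cells (-3.54 ± 0.30, adjusted p = 0.0034). In EP14 and EP10 the low cells lay above the trunk cells' 333 and 268 CPM, and in EP12 below their 370 CPM. On live plates alone Hes1 stood at 39.3, 96.5 and 39.0 CPM in high cells, against 293, 653 and 764 CPM in low cells; no test was run there because some sums held fewer than 10 cells. Notch2 stood at 10.01, 20.03 and 15.98 CPM in high cells, against 97.2, 144 and 125 CPM in low cells (-2.98 ± 0.31, adjusted p = 0.0037). Nrarp stood at 12.51, 0 and 0 CPM in high cells, against 41.1, 94.0 and 41.8 CPM in low cells (-3.29 ± 0.76, adjusted p = 0.033). Of 18 tested Notch pathway genes 7 were higher, among them Dll1 (1.57 ± 0.38) and Hes6 (1.88 ± 0.22), and 4 lower. Of all tested genes 5.25% were higher and 4.66% lower.

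Gadd45a rose most among the called genes of the Neurog3 program, to 1508, 1134 and 1478 CPM in Neurog3-high cells, against 287, 16.6 and 127 CPM in Neurog3-low cells (3.58 ± 0.48, adjusted p = 0.0057). Cbfa2t3, a transcriptional corepressor, stood at 673, 697 and 1283 CPM in high cells, against 151, 44.2 and 139 CPM in low cells (3.03 ± 0.30, adjusted p = 0.0037). Pax4 differed by 2.65 ± 0.51 and Insm1 by 2.96 ± 0.57. Neurod1 stood at 906, 849 and 452 CPM in high cells, against 592, 11.1 and 173 CPM in low cells and did not pass the test (2.0 ± 0.72, adjusted p = 0.12). Isl1, a later factor, overlapped between both sets: 503, 377 and 15.98 CPM in high cells, against 255, 13.8 and 295 CPM in low cells (0.69 ± 1.03, adjusted p = 0.73). Of 36 tested genes of the program 25 were higher in high cells and none lower, where 5.25% of all tested genes were higher. The split by Neurog3, and a list drawn up with earlier results known, set part of this direction in advance. Aim1 (4.03 ± 0.53) and Kif26a (3.75 ± 0.65) led the 10 largest named increases in high cells. In Fev-gated cells of the same experiments, given for comparison without a test, Gadd45a averaged 96.4 CPM, Cbfa2t3 98.3 CPM, Kif26a 2.37 CPM and Neurod2 1.77 CPM.

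Trunk genes were lower in the Neurog3-high cells. Of 23 tested duct and trunk genes 11 were lower and 1, Prom1, was higher (1.13 ± 0.20, adjusted p = 0.014). Of all tested genes 4.66% were lower and 5.25% higher. Cldn10, a claudin, stood at 12.51, 48.1 and 4.00 CPM in high cells, against 162, 232 and 223 CPM in low cells (-3.31 ± 0.43, adjusted p = 0.0050), and averaged 297 CPM in trunk cells. Hpgd stood at 0, 4.01 and 7.99 CPM in high cells, against 102, 166 and 116 CPM in low cells (-5.04 ± 0.53, adjusted p = 0.0037). Ccnd1 stood at 20.01, 80.1 and 28.0 CPM in high cells, against 145, 271 and 145 CPM in low cells (-2.22 ± 0.27, adjusted p = 0.0049), each below the trunk cells' 470 to 566 CPM. Cyr61 was lower (-3.10 ± 0.32) and Amotl2 higher (1.74 ± 0.20). Of 47 tested cell cycle genes 10 were lower and none higher, where 4.66% of all tested genes were lower. Without EP12, 27 of 46 were lower, in a fit that called 390 of all 6457 genes lower. Mki67 was not called (-1.69 ± 0.52, adjusted p = 0.079), with 123, 0 and 236 CPM in high cells, against 251, 205 and 567 CPM in low cells.

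**Figure D4:**
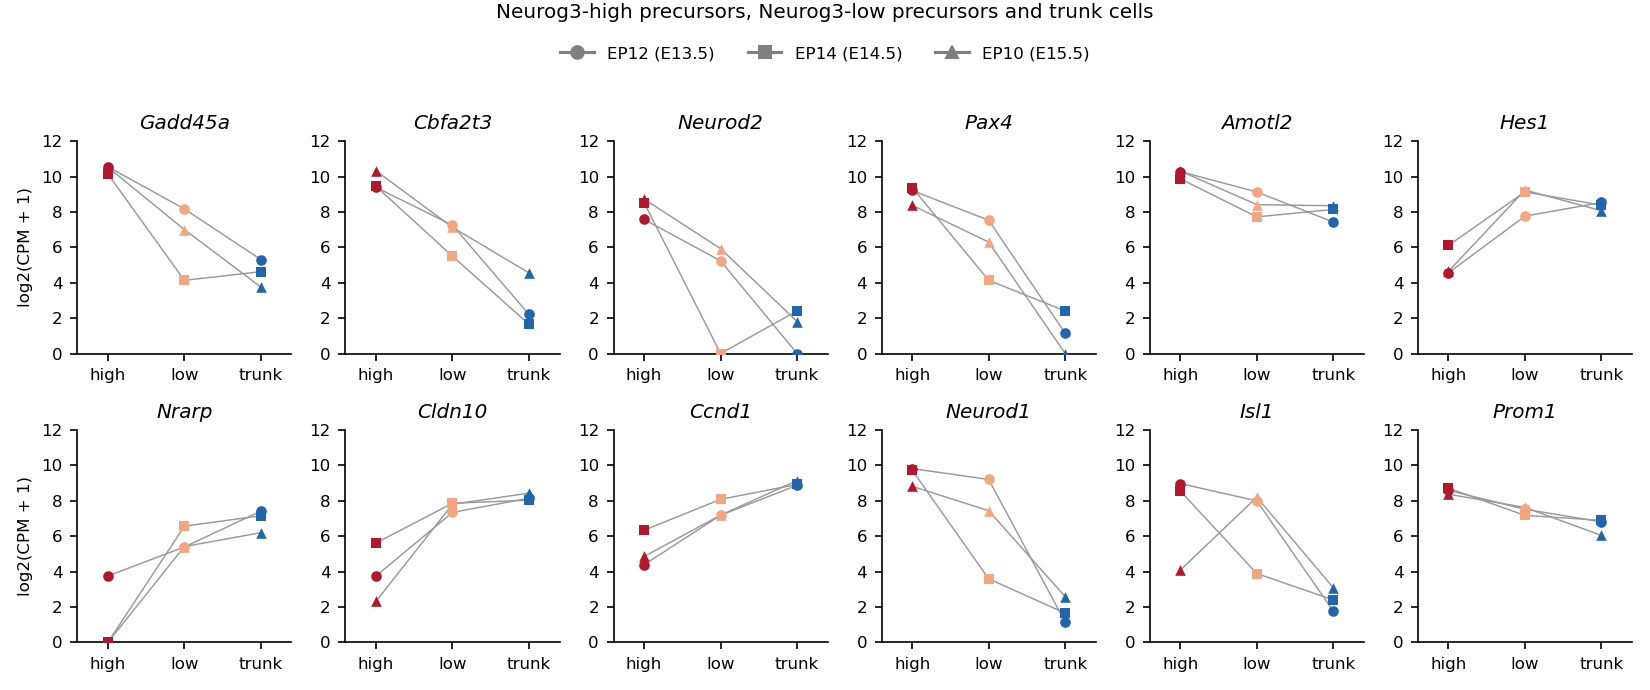
Levels of 12 genes, as log2(CPM + 1), in Neurog3-high precursors, Neurog3-low precursors and trunk cells (left to right in each panel); symbols and grey lines join the sums of an experiment. Hes1 lies at 22.5 to 68.1 CPM in the high cells and at 216 to 603 CPM in the low cells, below the trunk cells in EP12 and above them in EP14 and EP10, whereas Gadd45a, Cbfa2t3 and Pax4 are lower in the low cells and lowest in trunk cells apart from Gadd45a in EP14.

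The live plate of another experiment, EP11 at E12.5, had 15 precursors and 47 trunk cells by the same gates and lay outside the comparison. Its precursors held 672 CPM Neurog3 and 2688 CPM Cpa1 of all transcripts (102 CPM Cpa1 in its trunk cells), while the precursors of the 3 experiments held 1844 to 3334 CPM Neurog3 and 40.7 to 1047 CPM Cpa1. Of the genes called higher, 721 of 792 with enough transcripts there (91%) were higher on that plate, and of the genes called lower 621 of 718 (86.5%) were lower. The gates used transcripts of the same libraries there too, so genes that move with Neurog3, Sox9 or Spp1 had to agree in part. Among genes not called, 62.3% and 61.9% had the same direction. Their median log2 differences in the 3 experiments were smaller, at 0.25 and -0.26, against 1.2 and -0.8 for called genes. At least 2-fold differences were seen in 6.69% (higher) and 7.94% (lower) of all 8593 genes. On log2 ratios of CPM plus 1, Insm1 stood 6.96, Pax4 5.98, Cck 5.88, Gadd45a 4.54 and Prom1 1.24 above trunk cells, and Ccnd1 -1.73, Nrarp -2.33, Fmo1 -3.49 and Hes1 -0.52. These are values of 1 plate, with no replicate.

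**Figure D5:**
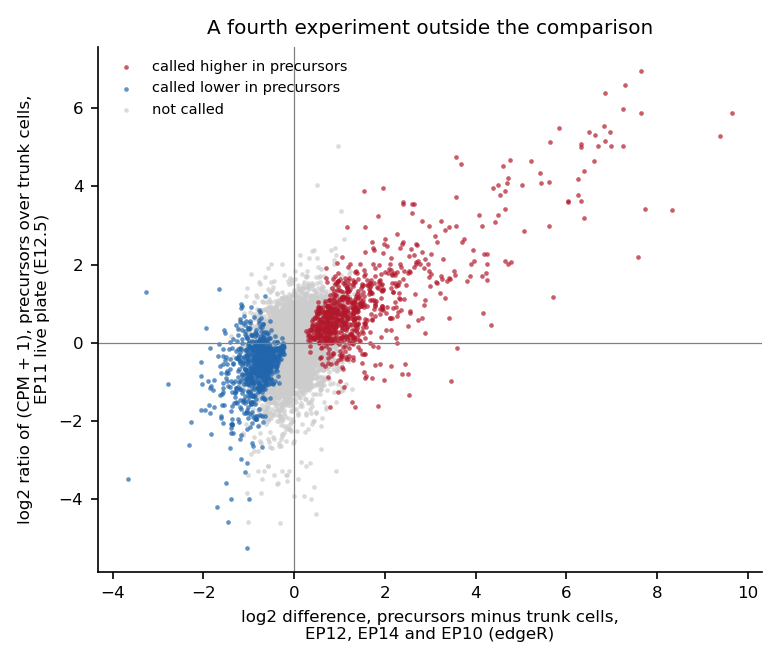
Log2 difference of each gene between precursors and trunk cells in the 3 experiments (horizontal axis) and its log2 ratio on the EP11 live plate, which was not used in the fit (vertical axis). Genes called higher (red) lie above 0 on that plate in 91% of cases and genes called lower (blue) below 0 in 86.5%. The cells of that plate were chosen by the same gates, which sets part of this direction in advance.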

How the data were processed

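Single cells of embryonic mouse pancreas were sequenced by SORT-seq. Reads were processed with BWA and Seurat on mm10, per the submitters' processing notes, and versions are not given in the sources used here. The deposited values are estimated counts (each expected count is a UMI number corrected for UMI collisions) of transcripts per gene and well. That the authors made this correction is read from the deposited values, which lie slightly above whole numbers by an amount that grows with the count. They were rounded to whole numbers. Of the wells, 5760 matched a listed library, no well name occurred more than once, and 1536 wells of the full table and 492 of the smaller one matched none and were not used here. Cells with at least 2000 transcripts and 500 genes were retained, and the 89 spike-ins were left out. No doublet caller was run, and an alternative left out wells above 5 times the plate median.

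Transcripts were summed per experiment and class (at least 10 cells), the 12 gate genes were removed, and edgeR 4.0.16 (R 4.3.3) was run with TMM, filterByExpr, its quasi-likelihood test, the experiment as block and Benjamini-Hochberg adjustment. The SE is the log2 difference divided by the root of F. The numbers pair the samples because the classes of an experiment share its plates, and their deviations from the class means correlated at 0.432, 0.281 and 0.533. On simulated data 64% of 2-fold and 95% of 4-fold changes were recovered in the comparison of precursors with trunk cells. Gene positions are from GENCODE on mm10. The members and gene lists were chosen with earlier results of these data known. Named genes were the 15 largest called differences in each direction with a mean of at least 50 CPM in the higher class and 1 direction in all 3 experiments, up to 5 called members of each list in each direction, a fixed set of pathway genes, and the 10 largest in each direction between Neurog3-high and Neurog3-low precursors. Alternatives changed 1 choice at a time, except that the fit on wells the authors kept also lacked EP10, which then had fewer than 10 cells in a class. DESeq2 1.42.0 was one of them. A few members of the lists are counted but not reported here by name.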

Additional observations from a re-analysis of the deposited data

How the results depend on the processing

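The comparison of precursors with trunk cells called 1596 genes. It called 506 with DESeq2, 496 of 3246 genes after cells were thinned to equal transcripts, 912 on live plates only and the same 912 with a plate block, since the same 3 plates enter. Without the replicate block, which pairs the classes of an experiment, it called 433. Leaving out 1 experiment gave 862 to 1461. The higher share of calls was 54.4% in the fit with the block, 73.3% with DESeq2 and 83.4% without the block. Between Neurog3-high and Neurog3-low precursors, 689 genes were called, against 250 with DESeq2, 1277 for at least 10 against 2 to 9 Neurog3 transcripts, 91 after thinning, 1491 without a filter on low counts and 170 without the replicate block, and 0 to 920 when 1 experiment was left out (0 without EP10). Other alternatives stayed within 1.5 times of each count. The cause of these shifts was not tested.

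Among shares of cells, trunk cells made up 6.30% of EP10 live and 11% of EP14 live wells after thinning to 5000 transcripts, precursors 4.88% of EP14 MIP-GFP and 3.67% of EP14 live wells after thinning, and 3.45% of EP14 live wells with at least 5 Neurog3 transcripts. Thinning also placed 2 of 351 cells (0.570%) of the EP10 MIP-GFP plate in the trunk class, against 0 of 358 unthinned.

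Named genes that changed sign were Pnliprp1 (-0.681 with at least 5 Neurog3 transcripts, -0.685 without EP10 and 1.724 without EP14, -0.75 without the 6 precursors rich in other lineages, -2.19 with at most 1 Cpa1 transcript and -1.06 in wells the authors kept, a fit that also lacks EP10), Col3a1 (-0.046 with at least 5 Neurog3, -0.013 without the 6 precursors and -0.083 with at most 1 Cpa1), Col1a2 (-0.378 with at least 5 Neurog3, -0.226 without the 6 precursors and -0.015 in wells the authors kept), Col1a1 (-0.397 with at least 5 Neurog3 and -0.429 without the 6 precursors), Rbp4 (-0.51 on live plates and with a plate block), Hes1 (0.342 without EP12, -0.696 without EP10, 0.21 on live plates and with a plate block; it was called in wells the authors kept, at -0.684, but not without EP10 alone), Notch1 (-0.12 with at least 5 Neurog3 and -0.105 with at most 1 Cpa1 transcript) and Sox4 (-0.051 without EP12 and 0.351 without EP10). Of 157 named genes, 53 lost their call with DESeq2 and 76 without the block. The settings without the 6 precursors, with at most 1 Cpa1 transcript and with EP11 added were chosen after seeing the data. MIP-GFP plates alone could not be fitted, nor, between Neurog3-high and Neurog3-low precursors, live plates, a plate block or the wells the authors kept, because fewer than 2 experiments had at least 10 cells in each class.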
